A study of Drosophila melanogaster with 9 samples.

Results

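The antimicrobial peptide genes of *Drosophila melanogaster* described here are 10 genes, out of 14909 genes with values in these data: the attacins *AttA*, *AttB*, *AttC* and *AttD*, the diptericins *Dpt* and *DptB*, the drosocin gene *Dro*, the cecropin gene *CecC*, the drosomycin gene *Drs* and the drosomycin-like gene *Drsl5*. They were picked by name, with their levels in the *Kah* mutants and in controls already known, so the comparisons of these 10 genes between genotypes are given as descriptions without a test. The tests below are for genes outside the 10.

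RNA was sequenced from whole embryos of 3 genotypes, with 3 biological replicates each, collected between 5 and 16 h after egg laying. *KahΔATG* and *KahΔZnF* are deletion alleles of *Kahuli* (*Kah*), which encodes a zinc-finger transcription factor of the Snail family. Both were made with CRISPR/Cas9 in *vasa-Cas9* embryos. *KahΔATG* removes most of exon 2 with the predicted start codon, and *KahΔZnF* is an in-frame deletion of the stretch that encodes the zinc fingers. The control strain was *w1118*, and no group received a treatment. Each mutant is 1 allele. The methods can be read as 1 collection of embryos shared by the 3 replicates of a genotype, and do not say whether the replicates were separate cultures. The allele, the genetic background of its line and its collection cannot be told apart, and p-values measure only the spread between these samples, which may be technical. Because whole embryos were used, fewer cells of a type and less RNA per cell cannot be told apart either.

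Antimicrobial peptides are short secreted proteins that insects make in the fat body, the gut, the trachea and other epithelia when microbes are sensed, and that act directly on bacteria or fungi. In *Drosophila* the Imd pathway, which ends in the NF-kappaB factor Relish, is the main inducer of diptericins, attacins, drosocin and cecropins. The Toll pathway, which ends in the NF-kappaB factors Dorsal and Dif, is the main inducer of *Drs* in the fat body, and the same pathway patterns the dorsal-ventral axis of the early embryo.

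The libraries held 17990440 to 19390121 reads on genes in *KahΔATG*, 18989460 to 19916071 in *KahΔZnF* and 18587513 to 20036805 in *w1118*. Mitochondrial genes took 8.67% to 11.2% of these reads in 3 libraries (replicate 1 of *KahΔZnF*, replicates 2 and 3 of *w1118*) and 15.3% to 16.6% in the other 6. *Kah* itself had 1617, 1459 and 1611 reads in *KahΔATG*, 809, 637 and 727 in *KahΔZnF* and 406, 376 and 375 in *w1118*. The reads per gene do not show which exons were covered, so they do not check the deletions. Normalized counts below are reads divided by size factors computed over all 9 libraries together. Log2FC is the difference of mean log2(value + 1). For comparisons with *w1118* the values are the deposited ones, scaled separately for each mutant with its controls. Between the mutants they are the normalized counts.

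The genes fell into 2 patterns. The 8 attacin, diptericin, drosocin and cecropin genes, called the Imd-class genes here after their best-known inducer, summed to 371 ± 29.2 normalized counts in *KahΔATG*, 108 ± 27.8 in *KahΔZnF* and 25.9 ± 8.41 in *w1118* (mean ± SD, n = 3 each). In reads, the sums ran from 342 to 389 in *KahΔATG*, from 89 to 132 in *KahΔZnF* and from 18 to 34 in *w1118*, so the 3 genotypes did not overlap in the sum. Single genes, such as *AttB* and *CecC*, did overlap between *KahΔZnF* and *w1118*. The drosomycins moved apart from these genes and from each other, with *Drsl5* at 2318 ± 190 in *KahΔZnF* and near 0 in the other genotypes, and *Drs* at its lowest in *KahΔATG*.

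**Figure D1:**
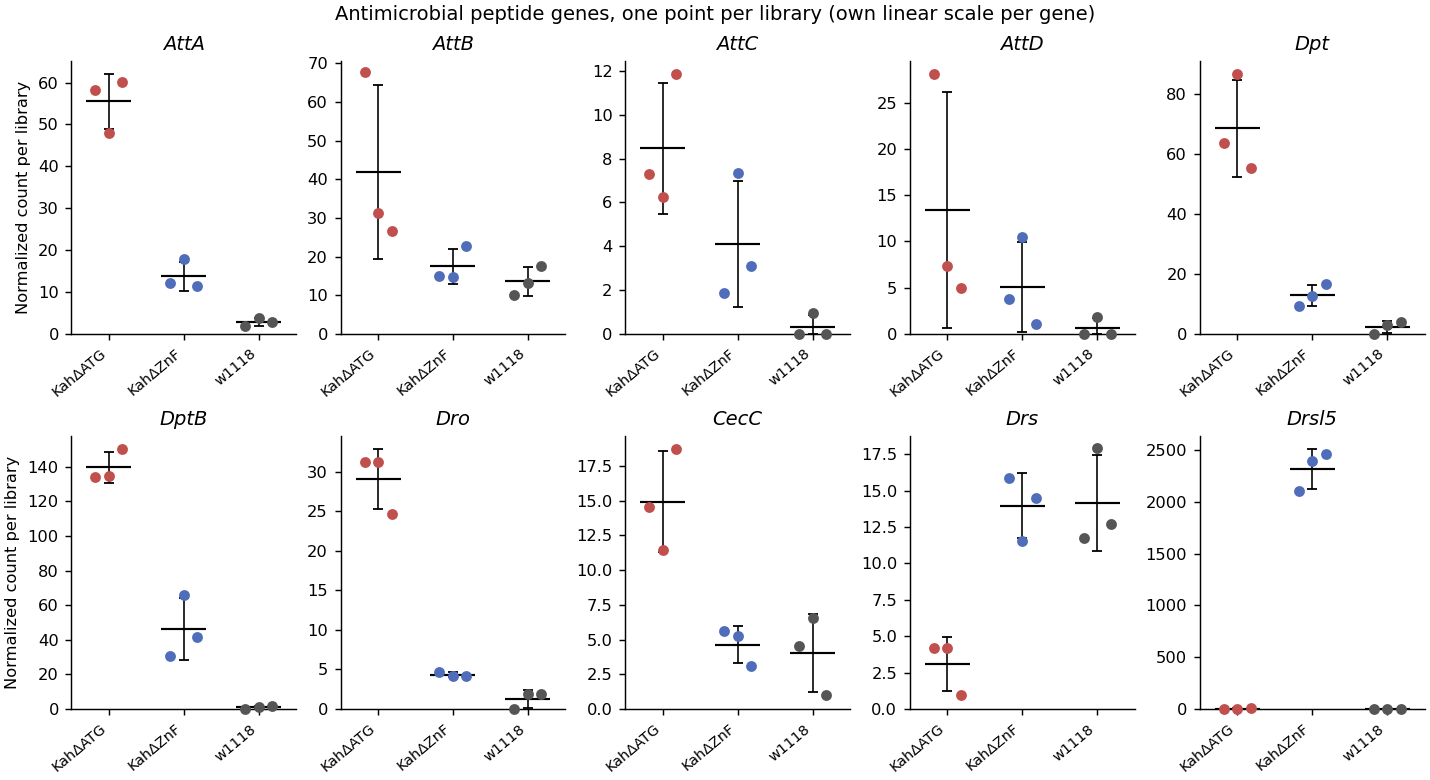
Normalized counts of the 10 antimicrobial peptide genes in each library, with 1 panel and 1 linear y axis per gene. Points are libraries, long horizontal lines are the means and error bars are 1 SD (n = 3, cut at 0). In the panels of *AttA*, *Dpt*, *DptB* and *Dro* the *KahΔATG* points stand highest and the *w1118* points lowest, whereas the 3 *KahΔZnF* points of *Drsl5* stand alone at 2318 ± 190.

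In *KahΔATG* the diptericins had the highest levels of the Imd-class genes. *DptB* (FBgn0034407), a diptericin active against Gram-negative bacteria, had 129, 129 and 152 reads in *KahΔATG*, 33, 63 and 40 in *KahΔZnF* and 0, 1 and 2 in *w1118*. Every *KahΔATG* library was above every *KahΔZnF* library, and those were above every *w1118* library. The ratio of reads, scaled by the size factors, was 149 for *KahΔATG* over *w1118* (95% counting interval 50.5 to 724) and 48.3 for *KahΔZnF* over *w1118* (16.2 to 237). These intervals are exact and conditional on the reads summed over 3 libraries. They cover counting error only, and their width comes from the 3 reads that the *w1118* libraries held in all. The log2FC of *DptB* was 6.32 in *KahΔATG* and 4.67 in *KahΔZnF*, but for a gene this close to 0 in the control the value depends on the 1 added before taking logs.

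*Dpt* (FBgn0004240), the diptericin gene that serves as the standard readout of the Imd pathway, lies beside *DptB*. It had 61, 83 and 56 reads in *KahΔATG*, 10, 12 and 16 in *KahΔZnF* and 0, 3 and 4 in *w1118*. Its genotypes took the same order without overlap, with a read ratio of 31.1 for *KahΔATG* over *w1118* (14.8 to 78.3) and 5.78 for *KahΔZnF* over *w1118* (2.55 to 15.4). The *KahΔZnF* level was 0.186 of the *KahΔATG* level for *Dpt* (0.128 to 0.264) and 0.325 for *DptB* (0.266 to 0.396). Per kb of gene length, *DptB* ranked 4393 of 14306 genes in *KahΔATG*, 7412 in *KahΔZnF* and 12622 in *w1118*.

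Among the attacins, glycine-rich peptides active mainly against Gram-negative bacteria, *AttA* (FBgn0012042) separated the genotypes most clearly. It had 56, 46 and 61 reads in *KahΔATG*, 13, 17 and 11 in *KahΔZnF* and 2, 4 and 3 in *w1118*. No 2 genotypes overlapped, and the log2FC against *w1118* was 3.92 in *KahΔATG* and 1.96 in *KahΔZnF*. *AttB* (FBgn0041581), its near-identical neighbour, had 65, 30 and 27 reads in *KahΔATG*, 16, 14 and 22 in *KahΔZnF* and 11, 14 and 18 in *w1118*. All *KahΔATG* libraries were above the rest, while *KahΔZnF* and *w1118* overlapped. Replicate 1 of *KahΔATG* held over 2 times the *AttB* reads of the other replicates, and the *KahΔATG* log2FC of 1.48 became 1.08 without it.

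How the counting divided reads between *AttA* and *AttB* is uncertain because of their similarity, so their sum was also taken. It was 121, 76 and 88 reads in *KahΔATG*, 29, 31 and 33 in *KahΔZnF* and 13, 18 and 21 in *w1118*. The genotypes did not overlap in the sum, and the read ratio was 5.96 for *KahΔATG* over *w1118* (4.42 to 8.17) and 1.91 for *KahΔZnF* over *w1118* (1.34 to 2.73).

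The other attacins were measured on few reads. *AttC* (FBgn0041579) had 7, 6 and 12 reads in *KahΔATG*, 2, 7 and 3 in *KahΔZnF* and 0, 1 and 0 in *w1118*. Both mutants were above the control in every library and overlapped each other. Against a single read in *w1118*, the ratio was 27.2 for *KahΔATG* (4.45 to 1116) and 12.8 for *KahΔZnF* (1.89 to 547). *AttD* (FBgn0038530) had 27, 7 and 5 reads in *KahΔATG*, 4, 10 and 1 in *KahΔZnF* and 0, 2 and 0 in *w1118*. Its *KahΔATG* libraries were above *w1118*, the *KahΔZnF* libraries overlapped both, and replicate 1 held most of the *KahΔATG* reads. Without that library the *AttD* log2FC for *KahΔATG* was 2.33, against 3.01 with it.

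*Dro* (FBgn0010388), which encodes the proline-rich peptide drosocin, had 30, 30 and 25 reads in *KahΔATG*, 5, 4 and 4 in *KahΔZnF* and 0, 2 and 2 in *w1118*. The replicates of each genotype lay close together and no genotypes overlapped. *Dro* in *KahΔZnF* was at 0.15 of its *KahΔATG* level (0.0767 to 0.27), the smallest such ratio of the 8 Imd-class genes. *CecC* (FBgn0000279), a cecropin that disrupts bacterial membranes, had 14, 11 and 19 reads in *KahΔATG*, 6, 5 and 3 in *KahΔZnF* and 5, 7 and 1 in *w1118*. *KahΔATG* libraries of *CecC* were all above the rest, and *KahΔZnF* overlapped *w1118*, with a ratio of 1.15 (0.5 to 2.65) that covers values on either side of 1.

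The drosomycins are cysteine-stabilised peptides, of which *Drs* is known for activity against fungi. *Drs* (FBgn0010381) had 4, 4 and 1 reads in *KahΔATG*, 17, 11 and 14 in *KahΔZnF* and 13, 19 and 13 in *w1118*. It was the 1 gene of the 10 that stood below *w1118* without overlap in *KahΔATG*, at 0.217 of the *w1118* level (0.0935 to 0.451). In *KahΔZnF* its libraries overlapped *w1118*, with a ratio of 0.995 (0.637 to 1.55).

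*Drsl5* (FBgn0035434), a relative of *Drs*, had 2250, 2285 and 2377 reads in *KahΔZnF*, 0, 1 and 6 in *KahΔATG* and 1, 0 and 1 in *w1118*. The *KahΔZnF* libraries were close to each other and lay far outside the other genotypes, which overlapped. The read ratio was 3683 for *KahΔZnF* over *w1118* (1019 to 30416) and 968 for *KahΔZnF* over *KahΔATG* (469 to 2408). Per kb of gene length, *Drsl5* ranked 178 of 14306 genes in *KahΔZnF*, 11324 in *KahΔATG* and 12859 in *w1118*. It made up 95.0% of the summed normalized counts of the 10 genes in *KahΔZnF*, 0.616% in *KahΔATG* and 1.54% in *w1118*.

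Without *Drsl5*, the 9 remaining genes summed to 346 to 393 reads in *KahΔATG*, 106 to 143 in *KahΔZnF* and 31 to 53 in *w1118*, and their composition differed. *DptB* made up 37.3% of that sum in *KahΔATG* and 37.7% in *KahΔZnF*, against 2.41% in *w1118*. *AttB* and *Drs*, the most abundant of the 9 in *w1118*, made up 34.0% and 35.3% of the sum there. In the mutants *AttB* made up 11.2% (*KahΔATG*) and 14.3% (*KahΔZnF*), and *Drs* 0.83% (*KahΔATG*) and 11.4% (*KahΔZnF*). With *CecC* at 10.1%, these genes made up most of the small *w1118* sum.

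Counted over the 10 genes, 8 were higher and 1 was lower in *KahΔATG* than in *w1118* without overlap, and *Drsl5* overlapped. Among all 10972 genes tested, 29.6% were higher and 28.6% lower without overlap. In *KahΔZnF*, 6 of the 10 were higher and 0 lower than *w1118* without overlap, and *AttB*, *AttD*, *CecC* and *Drs* overlapped, beside 37.4% higher and 37.1% lower of 10957 genes. Between the mutants, *Drs* and *Drsl5* were higher and 6 genes lower in *KahΔZnF* than in *KahΔATG* without overlap, beside 32.7% and 27.7% of 10850 genes. *AttC* and *AttD* overlapped there. Both comparisons with *w1118* use the same control libraries, and the 10 genes were chosen on these contrasts, so nothing is read from the counts against those shares.

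A gene entered the fits only where 3 or more of the libraries compared had a value of 10 or above, on the scale of that comparison. It was called at an adjusted p of at most 0.05 and a log2FC of at least 0.59 in size. In *KahΔATG* against *w1118*, 7 of the 10 entered, and 14.7% of all tested genes were called higher and 10.6% lower. In *KahΔZnF* against *w1118*, 5 entered, and 23.8% of all tested genes were called higher and 25.5% lower. In *KahΔZnF* against *KahΔATG*, 8 entered, and 5.68% of all tested genes were called higher and 12.9% lower. Calls are not given for the 10 genes, because they were chosen on these contrasts. A gene near 0 in 1 of the genotypes compared can enter only through the other, in which it is high, so such a gene had to differ. The median log2FC over all 10 was 2.96 in *KahΔATG* and 1.84 in *KahΔZnF* against *w1118*, and −1.37 between *KahΔZnF* and *KahΔATG*. Over all tested genes the medians were −0.02, 0.00 and 0.04. The sets are unlike, here and in the counts without overlap above. The 10 include genes that did not pass the filter, and the tested genes do not.

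**Figure D2:**
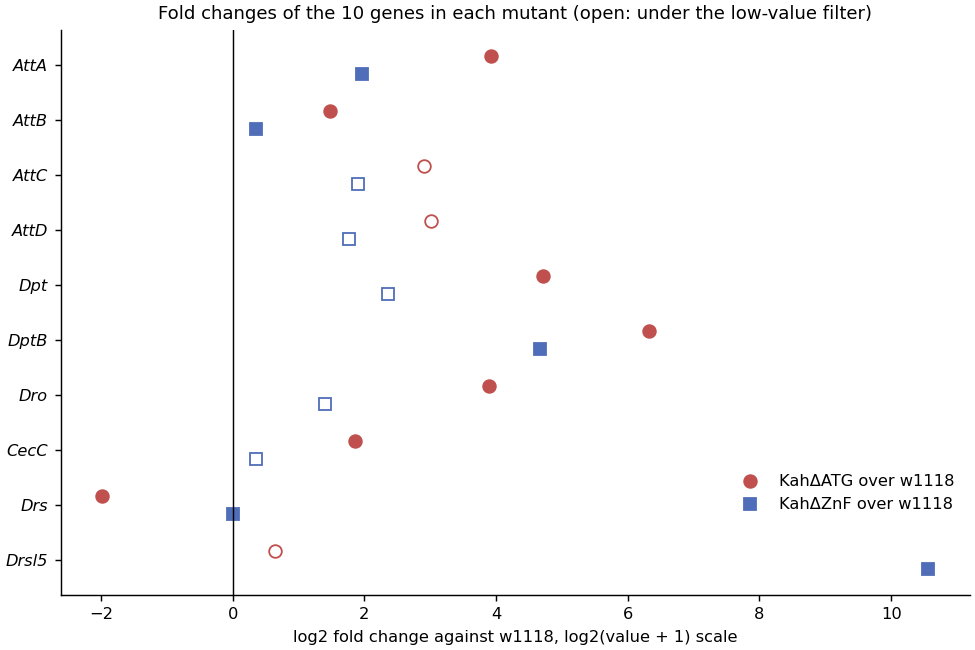
Log2 fold changes of the 10 genes against *w1118* on the log2(value + 1) scale of the deposited values, circles for *KahΔATG* and squares for *KahΔZnF*. Open symbols are genes under the low-value filter. The circles lie right of the squares for the 8 Imd-class genes, *Drs* is at −1.99 in *KahΔATG* and −0.00 in *KahΔZnF*, and the *Drsl5* square stands alone at 10.56.

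The split of the libraries by mitochondrial reads crosses the genotypes, so the Imd-class sum was also read on each side of it. Among libraries with the higher mitochondrial share it was 342 to 389 reads in *KahΔATG* (3 libraries), 132 and 100 in *KahΔZnF* and 18 in *w1118*. Among those with the lower share it was 89 in *KahΔZnF* and 34 and 30 in *w1118*. *KahΔATG* had no library on the lower side, so only *KahΔZnF* and *w1118* could be compared there, and *KahΔZnF* had the higher sum on both sides. *Drsl5* in *KahΔZnF* had 2250 reads on the lower side and 2285 and 2377 on the higher side.

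Marker genes of tissues that can make these peptides were summed in the same libraries. Of 8 fat body genes, all were found, and their sum ran from 24960 to 26700 normalized counts in *KahΔATG*, from 24850 to 30030 in *KahΔZnF* (where *Lsp1alpha* was at 0) and from 28230 to 29680 in *w1118*. Most of that sum was 1 gene, *Rfabg* (apolipophorin), which was not called in either mutant. *Fbp2* had 27, 25 and 29 reads in *KahΔZnF*, 8, 12 and 8 in *KahΔATG* and 1, 0 and 2 in *w1118*, higher in both mutants without overlap, whereas *Lsp1gamma* had 17, 7 and 21 in *KahΔZnF*, 59, 75 and 56 in *KahΔATG* and 87, 105 and 96 in *w1118*. The sum of 7 tracheal genes was 32770 to 33990 in *KahΔATG*, 27510 to 31410 in *KahΔZnF* and 31100 to 35200 in *w1118*. Of the 7, 1 was called higher and 1 lower in each mutant against *w1118*. The sums of 15 hemocyte genes were 94370 to 103400 in *KahΔATG* and 76010 to 82670 in *KahΔZnF*, lower than the 110200 to 150900 in *w1118*. The collagen genes *Cg25C* and *vkg* made up most of the *w1118* sum. Of the 15, 1 was called higher and 4 lower in *KahΔATG*, and 2 higher and 9 lower in *KahΔZnF*. The higher ones were *PPO1* (1.01 in *KahΔATG*), *Nplp2* and *gcm* (0.69 and 0.82 in *KahΔZnF*). Over all tested genes the shares were 14.7% higher and 10.6% lower in *KahΔATG*, and 23.8% and 25.5% in *KahΔZnF*. The sums of 14 digestive midgut genes were 2080 to 2376 in *KahΔATG* and 1785 to 1982 in *KahΔZnF*, likewise lower than the 4692 to 5337 in *w1118*. Of the 14, 0 were called higher and 8 lower in *KahΔATG*, and 1 higher and 10 lower in *KahΔZnF*. None of the 4 sums was higher in both mutants than in *w1118*, and the part of these markers, *Fbp2* included, in the levels of the peptide genes was not tested. Markers of the adult ovary and male glands, 10 of 13 found, summed to 36.5 to 45.8 in *KahΔATG*, 62.6 to 77.4 in *KahΔZnF* and 55.6 to 85.1 in *w1118*.

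In the BDGP6 assembly the genes lie on 3 chromosome arms. *Dro* (2R:14745961-14746714), *AttA* (2R:14747362-14748215) and *AttB* (2R:14749223-14750165) stand in a row on the plus strand, with 647 bp between *Dro* and *AttA* and 1007 bp between *AttA* and *AttB*. *Dpt* (2R:18865765-18866260) and *DptB* (2R:18867391-18867895) are 1130 bp apart, also on the plus strand. *AttC* (2R:13393705-13394667), *AttD* (3R:17625268-17626086) and *CecC* (3R:30216484-30216938) lie apart from the other 9. *CecC* sits in the cecropin cluster, with *CecB* at 2686 bp, *CecA1* at 5210 bp and *Anp* at 6101 bp, all with too few reads to be tested. The immune peptide genes *IM10* and *CG33470* lie 12343 and 17071 bp from *AttC*. *Drsl5* (3L:3316781-3317144) and *Drs* (3L:3369556-3369942), are 52411 bp apart on the plus strand. *Drs* was not found by its identifier in the annotation used, so its exon overlaps could not be checked. Among the other genes, exons of *AttC* overlap *CG4744* and exons of *DptB* overlap *CG43109*. The strand setting of the counting is not given in the sources used here, so reads of these genes and their partners may be shared. *CG43109* averaged 7.84 normalized counts in *KahΔATG*, 8.20 in *KahΔZnF* and 6.32 in *w1118*, far under *DptB* in the mutants.

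The genes around *AttA*, *DptB* and *Drsl5* mostly did not share the fold changes of these genes against *w1118*. Of 11 further genes within 25 kb of *AttA*, 10 were tested in *KahΔATG* against *w1118*, with 2 called higher and 0 lower. In *KahΔZnF* 11 were tested, with 2 higher and 2 lower. Of all tested genes, 14.7% were called higher and 10.6% lower in *KahΔATG*, and 23.8% and 25.5% in *KahΔZnF*. The higher genes around *AttA* were *ave* (log2FC 0.98 and 1.49) and *BEAF-32* (1.07 and 1.61), in *KahΔATG* and in *KahΔZnF*. Their fold changes were the larger in *KahΔZnF*, whereas those of *Dro*, *AttA* and *AttB* were the larger in *KahΔATG*. Around *DptB*, 8 of 12 further genes were tested in each mutant. Against *w1118*, 1 was called higher and 1 lower in *KahΔATG*, and 2 higher and 2 lower in *KahΔZnF*. Over the tested genes, log2FC ran from −1.15 for *Jheh2* to 1.07 for *CG18190*, both in *KahΔZnF*. In *KahΔZnF* against *KahΔATG*, 0 of 9 tested genes around *AttD* were called higher and 5 lower. Around *AttC* it was 0 and 2 of 4, beside 5.68% and 12.9% of all tested genes. *AttD* and *AttC* were themselves lower there (log2FC −1.23 and −0.99).

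Around *Drsl5*, 15 further genes lay within 25 kb. In *KahΔZnF* against *w1118*, 10 were tested, and 1 was called higher and 4 lower, beside 23.8% and 25.5% of all tested genes. The higher gene was *Drsl2*, another drosomycin-like gene 2099 bp from *Drsl5*. *PIG-C*, at 883 bp on the other side, averaged 58.5 normalized counts in *KahΔZnF*, 40.8 in *KahΔATG* and 41.2 in *w1118*, and its log2FC of 0.49 in *KahΔZnF* was not called (adjusted p = 0.056, limma). *ZnT63C* and *Strip*, abundant genes on either side, had log2FC of 0.06 and 0.10 in *KahΔZnF*. *Drsl4*, which lies 838 bp from *Drsl5*, had 2, 3 and 1 reads in *KahΔZnF*, 4, 4 and 5 in *KahΔATG* and 15, 14 and 10 in *w1118*, too few to be tested. The nearest drosomycin-like gene thus held the fewest reads in the genotype in which *Drsl5* held the most.

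**Figure D3:**
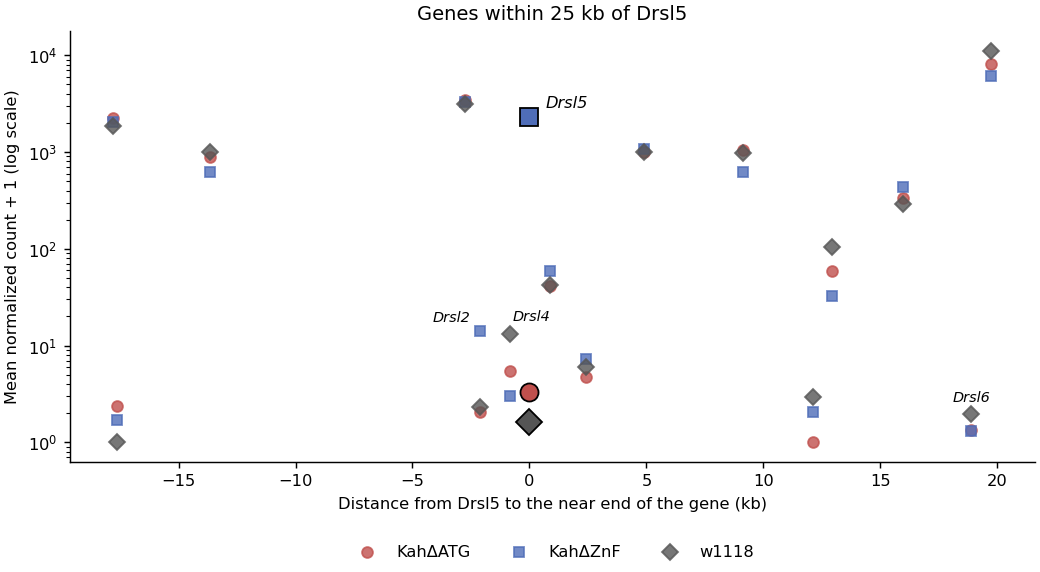
Mean normalized count + 1 (log scale, n = 3 libraries per genotype) of *Drsl5* at 0 (large outlined symbols) and of the genes within 25 kb, against distance in kb. Circles are *KahΔATG*, squares *KahΔZnF* and diamonds *w1118*. The *Drsl5* square is far above both other *Drsl5* symbols, the *Drsl2* square is above its own at far lower counts, and the other genes show no gap of that kind.

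Other antimicrobial and immune-induced peptide genes were listed by family. Of 34 listed, 25 were found in the data, and most had too few reads to be tested. *Mtk*, which encodes the antifungal metchnikowin, had 11, 6 and 10 reads in *KahΔATG*, 3, 6 and 5 in *KahΔZnF* and 5, 6 and 1 in *w1118*. *Def*, the defensin gene, and *CecA1*, the cecropin gene, stayed at or under 6 reads in every library. In *KahΔATG* against *w1118*, 4 of the 7 tested genes rose and 2 fell (limma, adjusted over all genes), beside 14.7% of all tested genes higher and 10.6% lower. In *KahΔZnF* against *w1118*, 3 of 8 rose and 2 fell, beside 23.8% higher and 25.5% lower. Some could enter a fit only through the genotype in which they were high, namely *edin* and *LysX* in *KahΔATG* against *w1118*, and *Drsl2* and *CG15067* in both comparisons of *KahΔZnF*. These genes had to differ, so their adjusted p-values below are not independent evidence of a change. *CG33470* in both comparisons with *w1118*, and *edin* between the mutants, also needed the higher genotype to pass the filter. There the lower genotype had fewer than 3 libraries at a value of 10 or above. The adjusted p-values of *CG33470* and of *edin* between the mutants carry the same limit. Over all tested genes of this list, the median log2FC against *w1118* was 0.64 in *KahΔATG* and 0.14 in *KahΔZnF*.

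*edin*, which encodes a secreted peptide induced by infection, resembled the Imd-class genes. It had 16, 22 and 23 reads in *KahΔATG*, 10, 10 and 11 in *KahΔZnF* and 5, 6 and 0 in *w1118*. The genotypes did not overlap, and the log2FC was 2.71 ± 0.68 (SE) in *KahΔATG* against *w1118* (limma, adjusted p = 0.009, higher in 3 of 3 libraries). That call was not kept under every alternative, over which the log2FC ran from 1.70 to 3.20. *KahΔZnF* fell below *KahΔATG* by 0.92 ± 0.32 on the log2 scale (limma, adjusted p = 0.028), a call that DESeq2 did not make and that was lost without replicate 1 or 2 of *KahΔZnF* or replicate 2 or 3 of *KahΔATG* (−0.93 to −0.85).

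*Drsl2* resembled *Drsl5* at a much lower level. It had 13, 13 and 13 reads in *KahΔZnF*, 2, 1 and 0 in *KahΔATG* and 0, 1 and 3 in *w1118*. It rose in *KahΔZnF* against *w1118* (log2FC 2.86 ± 0.57, limma, adjusted p = 0.0011) and against *KahΔATG* (2.93 ± 0.58, limma, adjusted p = 0.0014), with a read ratio of 12.7 (4.05 to 64.4) in the second comparison. *CG15067*, a gene of the Bomanin family of short Toll-induced peptides, took the same order, with 31, 43 and 43 reads in *KahΔZnF*, 1, 0 and 5 in *KahΔATG* and 3, 6 and 6 in *w1118*. Its log2FC was 2.85 ± 0.36 in *KahΔZnF* against *w1118* (limma, adjusted p = 4.5e-05).

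The Bomanin genes *IM1*, *IM2* and *IM3* did not move together. *IM3* had 118, 165 and 163 reads in *KahΔATG*, 24, 43 and 16 in *KahΔZnF* and 112, 86 and 72 in *w1118*. It rose in *KahΔATG* by 0.85 ± 0.19 on the log2 scale (limma, adjusted p = 0.0053) and fell in *KahΔZnF* by 1.66 ± 0.33 (limma, adjusted p = 9.8e-04). *IM1* rose in both, by 0.64 ± 0.23 in *KahΔATG* (limma, adjusted p = 0.039) and 0.84 ± 0.24 in *KahΔZnF* (limma, adjusted p = 0.0081). *IM2* was not called in either, at 0.31 ± 0.36 and 0.36 ± 0.30. *IM4*, the gene of the Toll-induced peptide Daisho, rose by 0.79 ± 0.23 in *KahΔATG* (limma, adjusted p = 0.017) and had a log2FC of −0.08 in *KahΔZnF*. When the mitochondrial split of the libraries was added to the fit, the calls of *IM1*, *IM3* and *IM4* in *KahΔATG* were lost, at log2FC of 0.46, 0.61 and 0.49. The *IM1* call in *KahΔATG* was also lost without any 1 library other than replicate 2 of that mutant (0.50 to 0.72). That of *IM4* was lost without replicate 2 or 3 of *KahΔATG* or replicate 2 of *w1118* (0.68 to 0.73). *IM2* was called at 0.73 without replicate 2 of *KahΔATG*, and at 0.66 in *KahΔZnF* without its replicate 1.

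Genes of the list fell as well. *LysX*, a lysozyme gene, had 0, 2 and 0 reads in *KahΔATG*, 19, 18 and 13 in *KahΔZnF* and 132, 107 and 111 in *w1118*. Its read ratio was 0.00621 for *KahΔATG* over *w1118* (7.5e-04 to 0.0226) and 0.152 for *KahΔZnF* over *w1118* (0.111 to 0.205), with adjusted p of 7.8e-06 and 1.7e-06 in limma. *CG33470*, a Baramicin gene, had 14, 7 and 12 reads in *KahΔATG*, 6, 61 and 30 in *KahΔZnF* and 64, 67 and 55 in *w1118*. It fell by 2.32 ± 0.28 on the log2 scale in *KahΔATG* (limma, adjusted p = 1.3e-04). In *KahΔZnF* the libraries of *CG33470* spread from near the *KahΔATG* level to the *w1118* level, and the log2FC of −1.30 ± 0.64 was not called (limma, adjusted p = 0.091). Without replicate 2 of *KahΔZnF*, which held the 61 reads, it was −2.02 and was called.

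**Figure D4:**
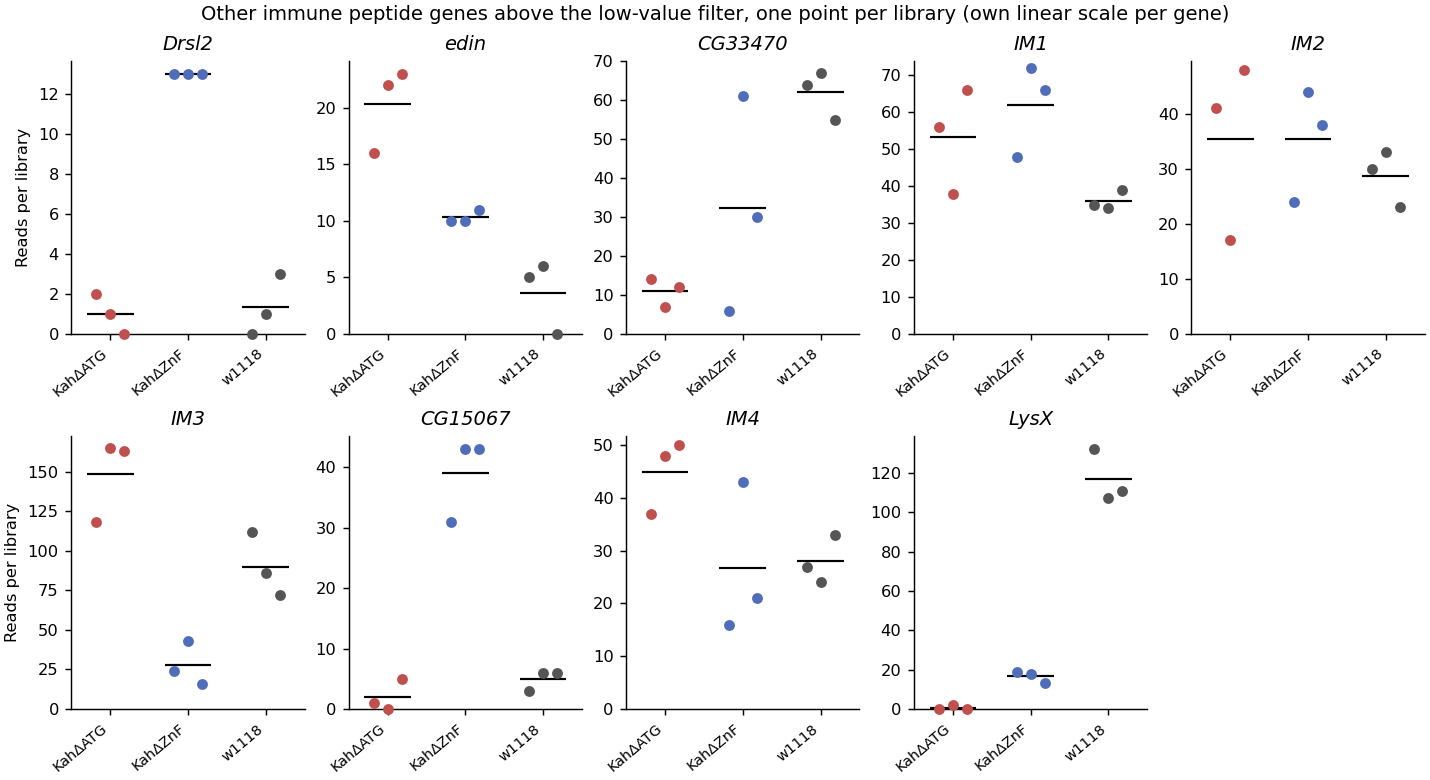
Reads per library of the 9 other immune peptide genes that passed the low-value filter in at least 1 comparison, each on its own linear axis. Points are libraries and lines are means (n = 3). *edin* steps down across *KahΔATG*, *KahΔZnF* and *w1118*, *Drsl2* and *CG15067* stand high in *KahΔZnF*, and *LysX* is highest in *w1118* with 132, 107 and 111 reads.

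The signalling genes above the peptides were called in both directions, at rates near those of all tested genes. Of 30 Toll pathway genes tested in *KahΔATG* against *w1118*, 5 rose and 3 fell, and of 29 tested in *KahΔZnF*, 7 rose and 7 fell. Of 26 Imd pathway genes tested in each, 4 rose and 3 fell in *KahΔATG*, and 6 rose and 6 fell in *KahΔZnF*. Among all tested genes, 14.7% were called higher and 10.6% lower in *KahΔATG* (25.3% either way), and 23.8% and 25.5% in *KahΔZnF* (49.3% either way). The counts of both lists lie near those shares, so nothing about the pathways is read from them. The median log2FC was 0.00 and 0.13 for the Toll list and −0.01 and −0.07 for the Imd list, in *KahΔATG* and in *KahΔZnF*.

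*Tl*, the Toll receptor, had 7994, 8006 and 8068 reads in *KahΔATG*, 11937, 9500 and 10246 in *KahΔZnF* and 4162, 4235 and 3926 in *w1118*. It rose by 1.09 ± 0.06 and 1.45 ± 0.08 on the log2 scale (limma, adjusted p = 1.3e-06 in *KahΔATG* and 1.4e-07 in *KahΔZnF*). *PGRP-LC*, the membrane receptor that senses peptidoglycan for the Imd pathway, was not called in either mutant, at 0.10 and 0.31. *PGRP-SD*, a secreted recognition protein, was at −0.03 in *KahΔATG*, and its call in *KahΔZnF* (−0.61, limma, adjusted p = 0.039) was lost under 10 alternatives, among them DESeq2 and leaving out replicate 1 or 2 of *KahΔZnF* or any 1 of the *w1118* replicates (−0.69 to −0.47). The protease gene *snk*, which acts above Toll in dorsal-ventral patterning, rose in both (1.36 and 1.57). *SPE*, the protease that cleaves the Toll ligand in the immune response, fell in both (−1.04 and −1.66), and *psh*, an immune protease above it, fell in *KahΔZnF* (−1.30).

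Among the intracellular genes, *imd*, the adaptor that names the pathway, was not called, with 353, 307 and 364 reads in *KahΔATG*, 326, 304 and 279 in *KahΔZnF* and 365, 350 and 344 in *w1118*. *Fadd*, the adaptor between Imd and its caspase, fell in *KahΔATG* (−1.47, limma, adjusted p = 1.8e-04) and in *KahΔZnF* (−0.82, limma, adjusted p = 0.0013). *Uev1A*, a ubiquitin-conjugating enzyme variant of the pathway, rose in both (0.94 and 1.41). *Rel*, which encodes Relish, had 793, 835 and 969 reads in *KahΔATG*, 748, 661 and 586 in *KahΔZnF* and 894, 1028 and 1049 in *w1118*. Its log2FC of −0.07 in *KahΔATG* and −0.48 in *KahΔZnF* did not reach the limit of a call. *Dif* fell in both (−0.73 and −1.18, the first lost at −0.53 when the mitochondrial split was added) and *dl*, which encodes Dorsal, fell in *KahΔZnF* (−0.87) and was not called in *KahΔATG* (−0.42).

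*PGRP-SC2* and *PGRP-SB1* encode secreted proteins that cleave peptidoglycan. *PGRP-SC2* fell in *KahΔATG*, with 7, 5 and 11 reads against 45, 22 and 26 in *w1118* (log2FC −1.76, limma, adjusted p = 0.0036), and had 21, 13 and 27 in *KahΔZnF*. *PGRP-SB1* fell in *KahΔZnF*, with 4, 11 and 6 reads against 30, 29 and 21 in *w1118* (log2FC −1.78, limma, adjusted p = 0.0022), and had 14, 20 and 23 in *KahΔATG*. Both genes could enter these fits only through *w1118*, where they were high, so the adjusted p-values are not independent evidence of a change. The call of *PGRP-SC2* was not kept under every alternative (log2FC −2.03 to −1.39). The amidase gene *PGRP-LB* was more abundant, with 266, 281 and 295 reads in *KahΔATG*, 281, 219 and 196 in *KahΔZnF* and 376, 484 and 561 in *w1118*, and fell in both mutants (−0.61 and −0.93).

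**Figure D5:**
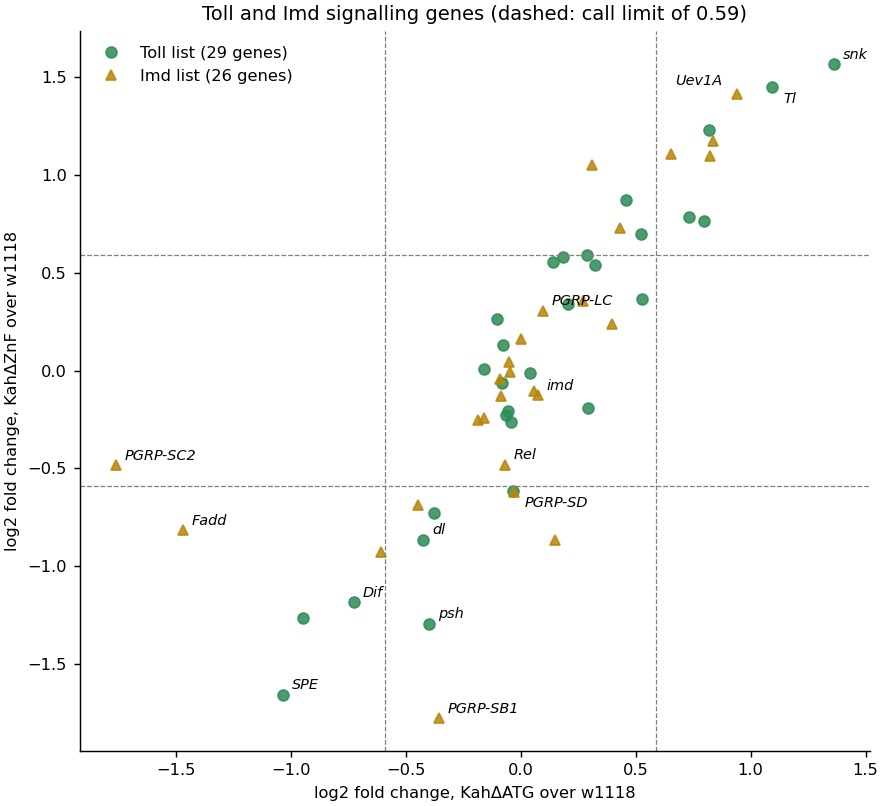
Log2 fold changes of Toll (circles, 29 genes) and Imd (triangles, 26 genes) pathway genes tested against *w1118* in both mutants, with *KahΔATG* on the x axis and *KahΔZnF* on the y axis, and dashed lines at the call limit of 0.59. Both axes share the *w1118* libraries. *snk*, *Tl* and *Uev1A* lie at the upper right, *SPE* and *Dif* at the lower left, and *imd* and *PGRP-LC* inside the limits.

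The genes whose pattern over the 9 libraries was most like that of a peptide gene were found by the root-mean-square distance of log2 values from the *w1118* mean, among 9638 genes. Nearest to *AttA* were *CG9465* (distance 0.591), *Ntl* (0.618) and *Drep-1* (0.67). *Drep-1* was far more abundant, with 1967 ± 170 normalized counts in *KahΔATG*, 1134 ± 59.7 in *KahΔZnF* and 275.6 ± 33.0 in *w1118*. For *Dpt* the nearest were *CG9465* (0.678), *CG11893* (0.68) and *AttA* (0.746). For *DptB* they were *Victoria* (0.504), *CG33268* (0.582) and *CG33269* (0.728), of which *Victoria* averaged 64.6 normalized counts in *KahΔATG* and 33.3 in *KahΔZnF* and was at 0 in *w1118*. Nothing lay close to *Drsl5*, whose nearest gene, *CG5111*, was at a distance of 3.15 and averaged 156 in *KahΔZnF*, 30.6 in *KahΔATG* and 0.628 in *w1118*.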

How the data were processed

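Paired-end reads were aligned to BDGP6. The submitters' processing notes name HISAT2 2.0.5, featureCounts 1.5.0-p3 and DESeq2 1.20.0. The deposited signal of a gene is its reads divided by a library size factor, in 1 table per mutant, and the deposited gene length is in bp. The authors' fold changes, p-values and adjusted p-values in the tables were not used. No column of sample values was left unmapped.

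Dividing by the value of 1 read gave whole reads for 100% of values above 0 (within 0.001). The 9 libraries were scaled together by median ratio over 14306 shared genes. Each pair of replicates differed beyond sampling noise.

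Each mutant was compared with *w1118* within its table, and *KahΔZnF* with *KahΔATG* on the joint scale, by the trended fit of limma 3.58.1 (R 4.3.3). The fits took log2(value + 1), a filter of 10 in 3 libraries and Benjamini-Hochberg adjustment. edgeR 4.0.16 and DESeq2 1.42.0 on recovered reads were alternatives. Members, lists and the rule for named genes were chosen with earlier results of these data known. Named are the 10 genes, listed peptides that passed the filter, of the signalling lists the 3 called genes highest and the 3 lowest in each mutant plus *Rel*, *Dif*, *dl*, *imd*, *Tl*, *PGRP-LC* and *PGRP-SD*, the 3 genes most like each member with a mean of at least 50, and *Kah*. *Mtk*, *Def*, *CecA1*, *Drsl4*, *PGRP-LB*, the markers and the neighbours were named after their values were seen. The fits were tested on simulated data. Sequences are not given here. Plots used matplotlib 3.10.9.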

Additional observations from a re-analysis of the deposited data

Results flagged for a closer look

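*IM3*, a Bomanin gene outside the 10, was called in opposite directions in the mutants, higher in *KahΔATG* and lower in *KahΔZnF* than in *w1118*. The *KahΔATG* call was lost, at a log2FC of 0.61, when the mitochondrial split of the libraries was added to the fit. All 3 *KahΔZnF* libraries (24, 43 and 16 reads) were below all 3 *KahΔATG* libraries (118, 165 and 163 reads). The difference itself, *KahΔZnF* minus *KahΔATG*, was −2.51 ± 0.30 on the log2 scale (limma, adjusted p = 5.3e-05), and it ran from −2.90 to −2.21 over the alternatives. The comparisons with *w1118* share the same 3 control libraries.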

How the results depend on the processing

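No called result turned its direction, but fold changes near 0 that were not called took either sign, as for *Drsl5* (−0.12 to 1.29), *IM2* (−0.01 to 0.73), *PGRP-SD* (−0.20 to 0.09) and *Rel* (−0.16 to 0.06) in *KahΔATG* against *w1118*, *CecC* (−0.23 to 0.75), *Drs* (−0.11 to 0.17) and *IM4* (−0.51 to 0.26) in *KahΔZnF* against *w1118*, and *IM1* (−0.01 to 0.42) and *IM2* (−0.38 to 0.35) in *KahΔZnF* against *KahΔATG*. Testing against a fold change of 1.5 lowered the called genes to 1052 in *KahΔATG* against *w1118* (2780 as reported), 3288 in *KahΔZnF* against *w1118* (5400) and 309 in *KahΔZnF* against *KahΔATG* (2019), the Toll and Imd genes to 7 (of 15), 13 (of 26) and 0 (of 7) in the same order, and the other peptides in *KahΔATG* against *w1118* to 2 (of 6). Requiring a value of at least 50 left 3, 2 and 1 called other peptides (6, 5 and 6 as reported), no filter gave 8 in *KahΔZnF* against *w1118*, and the mitochondrial term gave 3 in *KahΔATG* against *w1118*. Leaving out 1 replicate gave 3 to 5 other peptides in *KahΔATG* against *w1118* (3 without *KahΔATG* replicate 3 or *w1118* replicate 2), 3 to 5 in *KahΔZnF* against *w1118* (3 without *KahΔZnF* replicate 3) and 2 to 5 in *KahΔZnF* against *KahΔATG* (2 without any 1 of the *KahΔZnF* replicates). For Toll and Imd genes between the mutants it gave 4 to 8 (4 without *KahΔATG* replicate 2). The 9, 6 and 8 antimicrobial peptide genes without overlap stayed at these counts with unscaled reads and with reads scaled to the nuclear total. Both of these settings were chosen after seeing the data. Leaving out 1 library gave 9 to 10, 6 to 7 and 8 to 10, but it can only keep or raise such a count, so it does not test it. Same-numbered libraries correlated weakly (r from −0.246 to 0.223), so the numbers were not taken as a pairing, and the replicate block gave 2840, 5334 and 1985 called genes. The log2FC of *DptB* in *KahΔATG* ran from 4.64 with 5 added before taking logs to 7.22 with DESeq2, and that of *Drsl5* in *KahΔZnF* from 8.72 to 11.85 between the same settings. Values resting on about 10 reads or fewer, such as *AttC* in most libraries and *Drs* in *KahΔATG*, are limited by counting error.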
